A study of Mus musculus with 16 samples.

Results

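The genes described here are 10 mouse genes that join or divide mitochondria: Mfn1, Mfn2, Opa1, Opa3, Dnm1l, Fis1, Mff, Mief1, Mief2 and Mtfp1. They were chosen by symbol, each matched 1 Ensembl gene ID, and they are 10 of the 57186 gene IDs in the deposited count table. All 10 were among the 15206 genes with enough counts to be tested. Bulk RNA-seq was made from left ventricle of C57/BL6N mice in 4 groups of 4 biological replicates, 16 libraries in all. Mice that lacked Tfeb in cardiomyocytes (cKO) underwent either transverse aortic constriction (TAC) or a sham operation, and so did control mice, given as WT in the labels. TAC narrows the aortic arch, so that the left ventricle must eject against a higher pressure. The deletion is restricted to cardiomyocytes, so Tfeb transcripts of the other cells of the ventricle were still measured. The part of those cells in the Tfeb signal left in cKO was not tested. The Cre line, age, sex and time after surgery are not given in the sources used here.

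Mitochondria in heart muscle are held between fusion and division. The mitofusins MFN1 and MFN2 are GTPases that join outer membranes, and OPA1 is the GTPase that joins inner membranes and shapes cristae. Division is driven by the dynamin-like GTPase DRP1, the product of Dnm1l, which is recruited from the cytosol by the outer membrane receptors MFF, MIEF1 (MiD51), MIEF2 (MiD49) and FIS1. MTFP1 is an inner membrane protein that takes part in division, and OPA3 is a mitochondrial membrane protein named for an inherited human optic atrophy. TFEB is a transcription factor that switches on lysosome and autophagy genes through a palindromic E-box known as the CLEAR element.

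Promoter sequences are shown for 4 of the genes: Mfn1 and Mtfp1, which had the smallest adjusted p among the 10 in a TAC and in a genotype comparison, and Mief2 and Opa1, which were the members with a match to 1 of the rarer motifs searched. Each line holds the 250 bases before the RefSeq transcription start, 5′ to 3′ on the gene's own strand, from RefSeq on GRCm38.p6. Mfn1 lies at chr3:32529232-32529481 on the plus strand and Mtfp1 at chr11:4095432-4095681 on the minus strand. Mief2 lies at chr11:60728148-60728397 and Opa1 at chr16:29579084-29579333, both on the plus strand. Capitals mark every match to a searched motif, on either strand.
Mfn1: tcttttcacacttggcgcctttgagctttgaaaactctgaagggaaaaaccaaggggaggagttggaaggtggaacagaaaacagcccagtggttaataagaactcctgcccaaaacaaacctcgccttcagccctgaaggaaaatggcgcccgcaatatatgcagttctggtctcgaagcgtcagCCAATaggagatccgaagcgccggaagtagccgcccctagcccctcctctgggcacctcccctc
Mtfp1: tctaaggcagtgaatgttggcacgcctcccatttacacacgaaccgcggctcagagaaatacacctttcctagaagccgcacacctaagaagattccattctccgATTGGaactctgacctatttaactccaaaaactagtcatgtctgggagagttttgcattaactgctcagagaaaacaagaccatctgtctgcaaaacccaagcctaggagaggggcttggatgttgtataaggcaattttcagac
Mief2: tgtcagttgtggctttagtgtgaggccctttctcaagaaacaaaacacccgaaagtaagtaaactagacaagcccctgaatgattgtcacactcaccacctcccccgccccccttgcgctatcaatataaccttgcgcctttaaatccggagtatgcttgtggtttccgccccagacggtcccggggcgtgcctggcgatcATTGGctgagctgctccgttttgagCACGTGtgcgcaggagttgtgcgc
Opa1: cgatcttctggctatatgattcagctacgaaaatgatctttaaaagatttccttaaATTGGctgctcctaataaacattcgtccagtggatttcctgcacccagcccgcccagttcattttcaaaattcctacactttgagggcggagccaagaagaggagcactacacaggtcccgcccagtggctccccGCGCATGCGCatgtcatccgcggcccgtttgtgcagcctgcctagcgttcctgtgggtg
Windows of 300 bases, reaching 50 bases past the start, were searched for all 10 genes (15 windows, since some genes have several starts). The CLEAR element, here CACGTG with GT before it and AC after it, matched in 0 of the 10 genes, against 0.37% of all 27025 genes with such a window. Its core alone, the E-box CACGTG, matched in 1 gene, Mief2, with its first base 24 bases before the start (position -24), against 8.09% of all genes. AAGGTCA, the motif of estrogen-related receptors, matched in 0 of the 10 and in 5.38% of all genes. The palindrome bound by NRF1, with GCGC on both sides of AT, matched in Opa1 at position -59 and in 1.07% of all genes. CCAAT, which reads ATTGG on the other strand, matched in 7 of the 10 (Mfn1, Opa1, Dnm1l, Fis1, Mff, Mief2 and Mtfp1), against 41.1% of all genes. These are matches of letters in short windows and describe no binding.

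Totals ranged from 12946878 to 16347388 counts per library, so each of the 10 genes was counted at least 293 times in every library. Tfeb, the deleted gene, averaged 12.7 ± 2.34 CPM (counts scaled to a common library total corrected by TMM factors) in cKO TAC and 10.4 ± 1.73 in cKO sham, against 29.0 ± 9.76 in WT TAC and 36.5 ± 3.93 in WT sham (SD, n = 4 each). All 8 cKO values lay below all 8 WT values, with the highest cKO library at 14.7 and the lowest WT library at 20.6 CPM. Markers of other cells moved with TAC. The summed level of 8 fibroblast markers averaged 5927 ± 1730 CPM in cKO TAC and 1420 ± 449 in cKO sham, and 3204 ± 737 in WT TAC and 1087 ± 231 in WT sham. That of 8 cardiomyocyte markers averaged 50680 ± 7160 CPM in cKO TAC and 69800 ± 5100 in cKO sham, and 61340 ± 5260 in WT TAC and 70720 ± 4240 in WT sham. In a bulk sample, fewer cells of a type and less RNA per cell cannot be told apart. WT sham replicate 3 and WT TAC replicate 4 held the most atrial transcripts, at 2388 and 795.8 CPM summed over 4 atrial genes, against 2.06 to 248.7 CPM in the other libraries.

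Per kilobase of exon, Mfn2 was the most abundant of the 10 transcripts in every group. It averaged 138.8 CPM per kb in cKO TAC, 178 in cKO sham, 155 in WT TAC and 192 in WT sham. Mtfp1 came next, with 42.4 CPM per kb in cKO TAC, 72.9 in cKO sham, 69.2 in WT TAC and 88.0 in WT sham. Mfn1 and then Fis1 followed in the order of means in all 4 groups, with Dnm1l behind them at 20.1 to 22.7 CPM per kb. Libraries of Mtfp1 and Mfn1 overlapped in cKO TAC and not in the other groups, and those of Mfn1 and Fis1 overlapped in cKO TAC and in WT sham. Opa1, Opa3 and Mief2 lay close together, between 13.4 and 21.4 CPM per kb, and neighbours among these 3 overlapped in every group. Mff and Mief1 came last, Mff with 9.77 to 12.0 CPM per kb and Mief1 with 2.87 to 3.02, and neither overlapped its neighbours in any group. Lengths are the union of all annotated exons, so a gene with long rarely used exons reads low. Mff has 9757 bases of exon from 16 annotated transcripts and is the clearest such case.

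**Figure D1:**
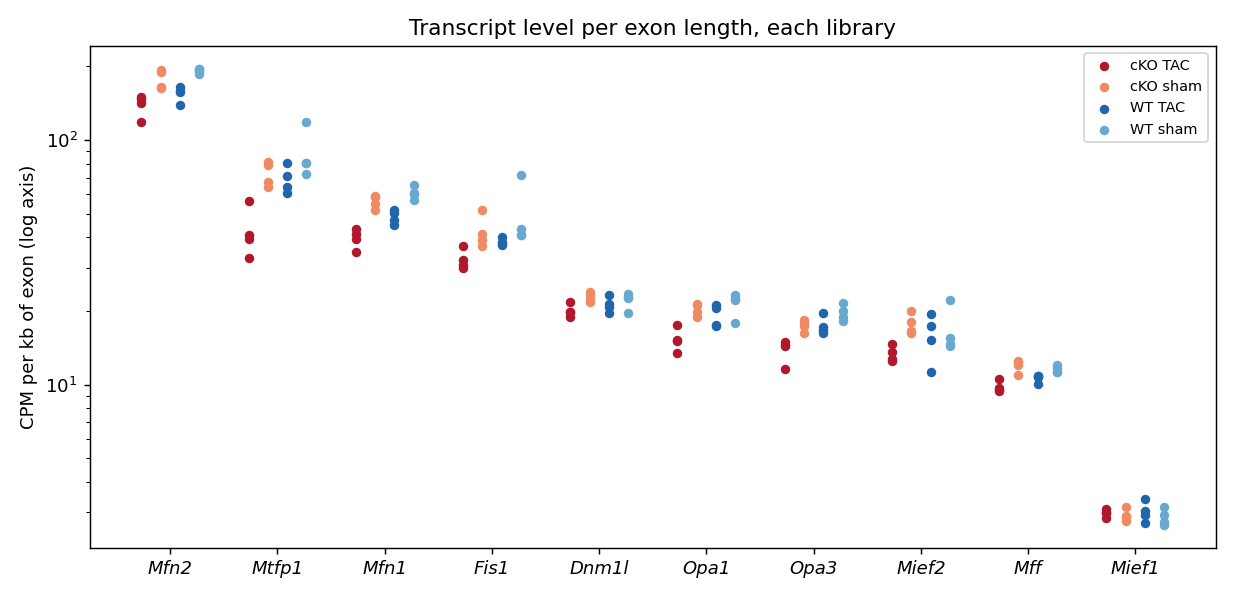
Level of each gene per kilobase of exon (CPM per kb, log axis) in the 16 libraries, 1 point per library, coloured by group. Mfn2 lies highest and Mief1 lowest in all 4 groups, and WT sham replicate 1 stands above the other WT sham libraries for Mtfp1 and Fis1.

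The TAC response was measured within each genotype. In cKO ventricles, 6 of the 10 genes were lower after TAC and 0 were higher (edgeR quasi-likelihood test, Benjamini-Hochberg adjusted p under 0.05). Both mitofusins, Opa1, Opa3, the receptor Mff and the division protein Mtfp1 fell, by 18.3% (Mff) to 41.8% (Mtfp1). Over all tested genes, 12.4% passed as lower and 14.2% as higher. In WT ventricles, 2 of the 10 fell, both of them mitofusins, against 6.14% of all tested genes lower and 9.70% higher. The median log2 fold change of the 10 was -0.37 in cKO and -0.17 in WT, where the median of all tested genes was 0.00336 and -0.0148.

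Mfn1 showed the smallest adjusted p of the 10. Its level was 212, 241, 264 and 253 CPM in cKO TAC and 361.5, 316, 356 and 334 CPM in cKO sham. In WT mice it was 275, 315, 309 and 287.5 CPM after TAC and 402, 371, 349 and 366 CPM after sham surgery. TAC libraries lay below every sham library of their genotype, and the 4 cKO TAC values were also below the 4 WT TAC values. Mfn1 fell by 0.50 (SE 0.0870, adjusted p = 0.000587) on the log2 scale in cKO and by 0.33 (SE 0.0869, adjusted p = 0.0165) in WT, by edgeR's quasi-likelihood test. Without WT TAC replicate 1, the adjusted p of the fall in WT was 0.0638.

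Mfn2, which also tethers mitochondria to the endoplasmic reticulum, was 614, 734, 775 and 761 CPM in cKO TAC and 1008, 852.5, 850.3 and 983 CPM in cKO sham. In WT it was 722, 856, 819 and 821 CPM after TAC and 1016, 1009, 998.8 and 965 CPM after sham surgery. The groups did not overlap within either genotype, while cKO TAC and WT TAC did. It fell by 0.36 (SE 0.0955, edgeR adjusted p = 0.0105) in cKO and by 0.31 (SE 0.0955, edgeR adjusted p = 0.0347) in WT on the log2 scale. The WT call for Mfn2 was near the threshold and passed in 9 of the 16 fits that each left out 1 library, with adjusted p between 0.0201 and 0.12. Per kilobase, Mfn2 stood above Mfn1 by a ratio of 3.50 ± 0.0809 in cKO TAC, 3.18 ± 0.275 in cKO sham, 3.19 ± 0.121 in WT TAC and 3.16 ± 0.165 in WT sham (SD, n = 4 each).

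Opa1 was 105.5, 119.8, 138 and 119 CPM in cKO TAC and 167, 149, 156 and 168 CPM in cKO sham, with no overlap. In WT the groups overlapped, with 137, 162, 167 and 138 CPM after TAC and 140.2, 178, 174 and 183 CPM after sham surgery. It fell in cKO, by 0.41 (SE 0.103, edgeR adjusted p = 0.00734) on the log2 scale. The difference in WT, -0.16 (SE 0.103, edgeR adjusted p = 0.31), did not pass.

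Opa3 was 58.6, 74.0, 76.1 and 72.8 CPM in cKO TAC, below the 92.9, 82.7, 90.9 and 87.9 CPM of cKO sham. WT values were 84.8, 99.7, 86.9 and 82.2 CPM after TAC and 109, 96.3, 92.5 and 101.7 CPM after sham surgery, with overlap. The fall in cKO was 0.33 (SE 0.0922, edgeR adjusted p = 0.013) on the log2 scale, and the WT difference of -0.18 (edgeR adjusted p = 0.201) did not pass.

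**Figure D2:**
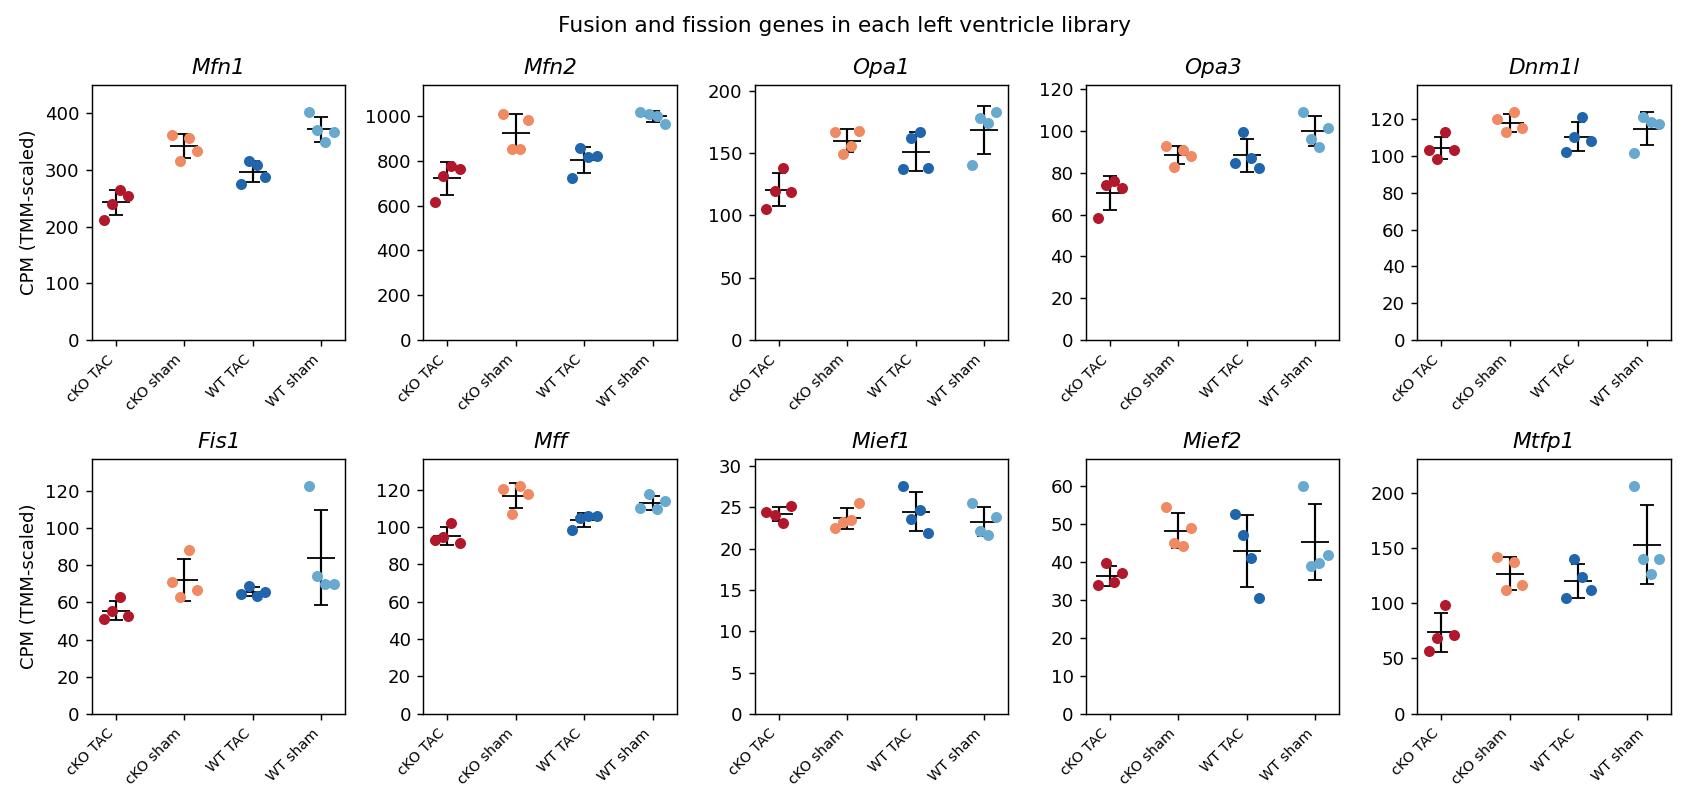
TMM-scaled CPM of the 10 genes in each library, 1 panel per gene with its own axis from 0, with the mean (bar) and SD (whiskers) of 4 libraries per group. The cKO TAC points lie below the cKO sham points in every panel but Mief1, and WT sham replicate 1 stands apart from its group for Fis1 and Mief2.

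Of the 6 genes of the division machinery, Mff and Mtfp1 passed in cKO. Dnm1l, which encodes the division GTPase itself, was 103, 98.3, 113 and 103 CPM in cKO TAC and 120.4, 113, 124 and 115 CPM in cKO sham. Its highest TAC value, 112.9 CPM, lay just under the lowest sham value, 113.0 CPM. The difference of -0.18 (SE 0.0803, edgeR adjusted p = 0.112, 95% interval -0.345 to -0.00843) did not pass. In WT, Dnm1l was 102 to 121 CPM after TAC and 101.7 to 121.5 CPM after sham surgery, a difference of -0.06 (95% interval -0.224 to 0.114, edgeR adjusted p = 0.682).

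Mff, the receptor that recruits DRP1 to the outer membrane, was 92.9, 94.5, 102 and 91.6 CPM in cKO TAC and 120.4, 107, 122 and 118 CPM in cKO sham. It fell by 0.29 (SE 0.0710, edgeR adjusted p = 0.0059) on the log2 scale in cKO. WT TAC libraries held 98.3 to 106 CPM and WT sham libraries 109.6 to 118 CPM, again without overlap, but the difference of -0.12 (SE 0.0710, edgeR adjusted p = 0.254) did not pass. Mff shares 195 exonic bases with the antisense transcript C430014B12Rik, which had a mean of 4.44 counts per library, and the strand setting of the counting is not given in the sources used here.

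Mief1 showed no TAC difference that passed. Its libraries spanned 23.1 to 25.1 CPM in cKO TAC and 22.5 to 25.5 CPM in cKO sham, and 21.95 to 27.6 CPM in WT TAC and 21.6 to 25.6 CPM in WT sham. The 95% interval of its log2 difference was -0.155 to 0.219 in cKO and -0.116 to 0.259 in WT (edgeR adjusted p = 0.833 and 0.627). Mief2, the other adaptor of this pair, was 34.0, 39.7, 34.65 and 37.0 CPM in cKO TAC, below the 54.4, 45.04, 44.3 and 49.1 CPM of cKO sham. Its difference in cKO, -0.41 (SE 0.151, edgeR adjusted p = 0.0547), missed the threshold narrowly. In WT its libraries overlapped, with 52.6, 47.0, 41.1 and 30.45 CPM after TAC and 60.0, 38.9, 39.85 and 41.9 CPM after sham surgery.

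Fis1, an outer membrane protein that binds the division machinery, was 51.3, 55.25, 62.9 and 53.0 CPM in cKO TAC and 70.9, 62.9, 88.4 and 66.9 CPM in cKO sham. The highest TAC value, 62.88 CPM, and the lowest sham value, 62.94 CPM, nearly touched. Its difference in cKO was -0.38 (SE 0.153, edgeR adjusted p = 0.0755) and in WT -0.36 (SE 0.152, edgeR adjusted p = 0.117), and neither passed. WT sham replicate 1, at 123 CPM against 69.9 to 74.2 CPM in the other WT sham libraries, carried much of the WT difference, which was -0.12 (edgeR adjusted p = 0.469) without it. Without that library the cKO differences of Fis1 and Mief2 then passed (edgeR adjusted p = 0.00626 and 0.0212). With it left out, 8 of the 10 genes fell in cKO and 1, Mfn1, fell in WT. Of the 15454 genes tested in that fit, 2228 were lower and 2405 higher in cKO, and 735 lower and 1342 higher in WT.

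Mtfp1 had the largest fold change of the 10 in cKO with TMM factors. Its level was 57.0, 68.5, 98.2 and 71.1 CPM in cKO TAC and 141, 112, 138 and 117 CPM in cKO sham. In WT it was 105, 140.3, 124 and 112 CPM after TAC and 206, 140.0, 126 and 139.7 CPM after sham surgery. The 4 cKO TAC libraries were the lowest of all 16 for this gene. It fell by 0.78 (SE 0.165, edgeR adjusted p = 0.00248) on the log2 scale in cKO, while the WT difference of -0.35 (SE 0.164, edgeR adjusted p = 0.156) did not pass and was -0.17 (edgeR adjusted p = 0.479) without WT sham replicate 1.

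In cKO, the TAC and sham libraries did not overlap for 9 of the 10 genes, all but Mief1, and these 9 had an unadjusted p under 0.05. In WT, 4 of the 10 did not overlap (Mfn1, Mfn2, Fis1 and Mff) and 4 had an unadjusted p under 0.05. Over all tested genes, the groups did not overlap for 29.3% in cKO and 19.5% in WT, and 38.3% and 31.3% had an unadjusted p under 0.05. After adjustment, 26.5% passed in either direction in cKO and 15.8% in WT. Cardiomyocyte markers fell with TAC alongside these genes, 6 of 8 in cKO and 2 of 8 in WT (edgeR adjusted p under 0.05), with the summed marker level -0.46 and -0.21 on the log2 scale (exact permutation p = 0.0286 each, the smallest that 4 against 4 libraries allow, and 0.163 after adjustment over 40 such tests). With library totals in place of TMM factors, the cardiomyocyte sums differed by -0.273 in cKO and -0.081 in WT (exact permutation p = 0.0286 and 0.114). Fibroblast markers were higher, 7 of 8 in cKO and 6 of 8 in WT, and 4 of 6 and 3 of 6 macrophage markers were higher. None of the cardiomyocyte or fibroblast markers was at 0 in any library. The mitochondrially encoded share of counts was 17.3 ± 2.10% in cKO TAC and 22.6 ± 1.02% in cKO sham, and 19.8 ± 2.23% in WT TAC and 23.5 ± 2.12% in WT sham. With the log2 fibroblast sum as a covariate, the TAC differences of all 10 genes had an adjusted p over 0.05, and in that fit edgeR called 0 of 15206 genes in either TAC comparison. The part of these shifts in the differences of the 10 genes was not tested further.

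**Figure D3:**
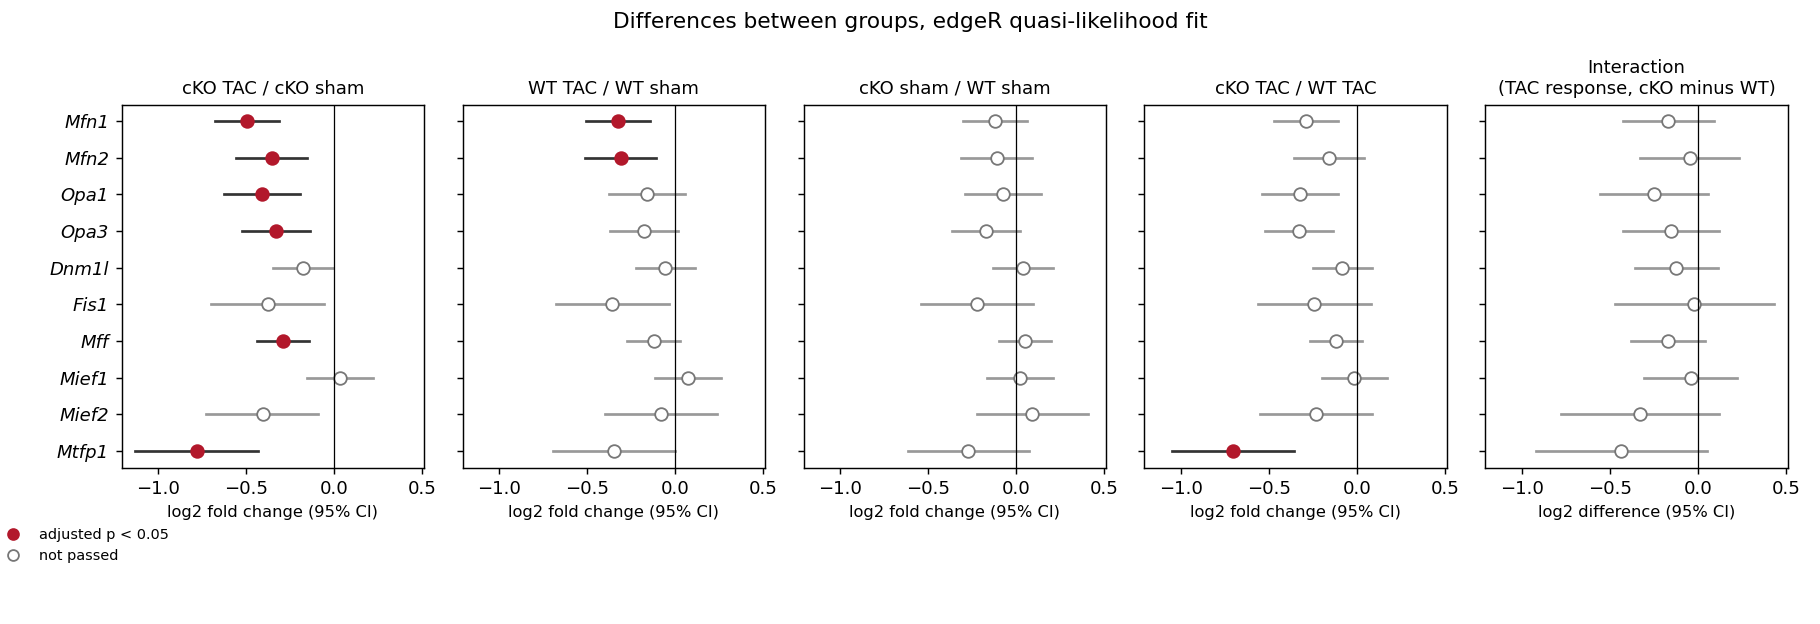
Log2 fold change of each gene with its 95% interval in the 4 group comparisons and the interaction, from 1 edgeR fit to all 16 libraries. Filled red points have an adjusted p under 0.05: 6 genes in cKO TAC against cKO sham, 2 in WT TAC against WT sham and 1, Mtfp1, in cKO TAC against WT TAC.

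The direction and the number of TAC calls depended on how the libraries were scaled. With library totals alone, Mfn1 (-0.30, edgeR adjusted p = 0.00502) and Mtfp1 (-0.60, edgeR adjusted p = 0.00386) fell in cKO. In WT, neither mitofusin passed with library totals (Mfn1 -0.20 and Mfn2 -0.19, edgeR adjusted p = 0.069 and 0.162). Scaled instead so that the summed cardiomyocyte markers were equal in all libraries, an alternative chosen after the data were seen, Mtfp1 was lower in cKO (-0.33, edgeR adjusted p = 0.0267). Under that scaling Dnm1l (0.30, edgeR adjusted p = 0.0326) and Mief1 (0.51, edgeR adjusted p = 0.00614) were higher, and Mfn2, Opa1, Opa3 and Mff changed sign without passing. Fis1 (0.0971) and Mief2 (0.0687), which had not passed with TMM factors, also changed sign without passing. Of all 15206 tested genes in cKO, 8194 were higher and 282 lower with the marker scaling, and 4013 higher and 877 lower with library totals. The Dnm1l value lay below the all-gene median of the marker scaling, 0.478. These scalings moved the median of all tested genes in cKO to 0.196 with library totals and to 0.478 with the marker scaling, where it was 0.00336 with TMM factors. The median of the 10 genes was -0.367 with TMM factors, -0.176 with library totals and 0.103 with the marker scaling. Rescaling shifts all genes nearly alike. The place of the 10 below the all-gene median under TMM factors therefore carries over to the other scalings and is no separate support.

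**Figure D4:**
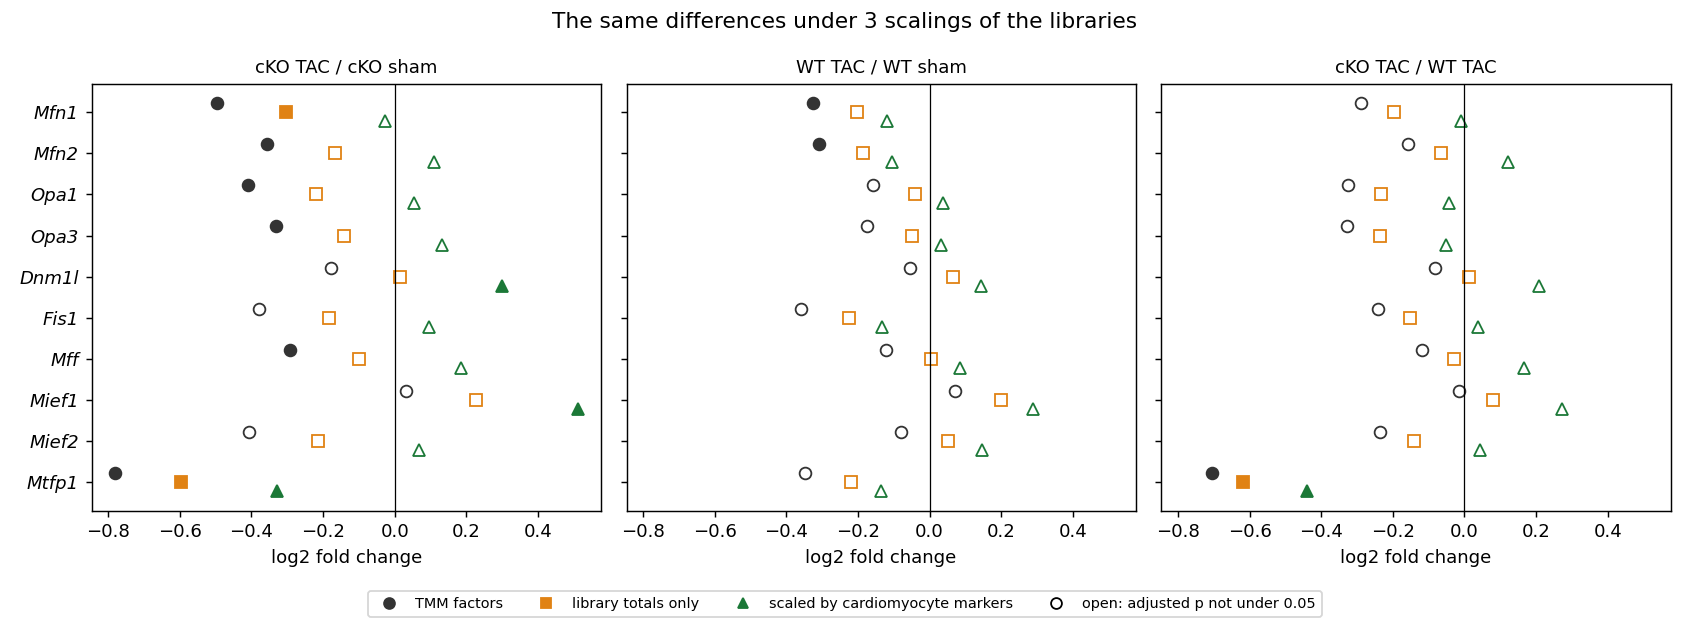
Log2 fold changes of the 10 genes under TMM factors (circles), library totals (squares) and scaling by cardiomyocyte markers (triangles). Filled symbols have an adjusted p under 0.05, and Mtfp1 is filled and negative under all 3 scalings in both comparisons that involve cKO TAC.

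Loss of Tfeb without pressure load was addressed by cKO sham against WT sham. No call was made for any of the 10 genes (0 by edgeR, 0 by DESeq2's Wald test, 0 by limma voom and 0 at an unadjusted p under 0.05), and the groups overlapped for all 10. Of all tested genes, 15.0% had an unadjusted p under 0.05 and 7.60% did not overlap. Over all tested genes, 0.552% passed as lower, 0.618% as higher and 1.17% in either direction. Mfn1 averaged 342 ± 20.9 CPM in cKO sham and 372 ± 21.9 in WT sham (95% interval of the log2 difference -0.304 to 0.0605). Mfn2 averaged 923 ± 83.7 CPM in cKO sham and 997 ± 22.5 in WT sham (interval -0.311 to 0.0893), and Mtfp1 averaged 127 ± 14.8 CPM in cKO sham and 153 ± 35.9 in WT sham (interval -0.616 to 0.0731). Dnm1l averaged 118 ± 4.97 CPM in cKO sham and 115 ± 8.93 in WT sham (interval -0.129 to 0.208). The log2 differences of the 10 lay between -0.271 (Mtfp1) and 0.0935 (Mief2), with a median of -0.0932 against -0.0125 for all genes. Without WT sham replicate 1 the difference was -0.0945 for Mtfp1 and 0.261 for Mief2.

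Under pressure load, 1 of the 10 genes, Mtfp1, was lower in cKO TAC than in WT TAC past the threshold. The estimates were negative for all 10 with TMM factors, for 8 with library totals and for 4 with the cardiomyocyte marker scaling. The median of all tested genes was 0.00438, 0.0977 and 0.292 under these scalings. Over all tested genes, 1.18% passed as lower and 0.598% as higher. Mtfp1 averaged 73.7 ± 17.5 CPM in cKO TAC and 120.3 ± 15.5 in WT TAC (SD, n = 4 each), a log2 difference of -0.71 (SE 0.165, edgeR adjusted p = 0.0379). The highest cKO TAC library, at 98.2 CPM, lay below the lowest WT TAC library, at 105 CPM. The cKO TAC libraries are also those of the TAC comparison within cKO, so the pair of differences is not independent.

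Another 3 genes reached an unadjusted p under 0.05. Opa3 averaged 70.4 ± 7.95 CPM in cKO TAC and 88.4 ± 7.77 in WT TAC (edgeR adjusted p = 0.0703). For Mfn1 the means were 242.5 ± 22.3 CPM in cKO TAC and 296.5 ± 18.5 in WT TAC (edgeR adjusted p = 0.0869). Opa1 averaged 121 ± 13.4 CPM in cKO TAC and 151 ± 15.7 in WT TAC (edgeR adjusted p = 0.101). With Mtfp1 these are 4 of the 10, where 17.4% of all tested genes had an unadjusted p under 0.05 and 1.78% passed after adjustment in either direction. Libraries did not overlap for 4 of the 10 (Mfn1, Opa3, Fis1 and Mtfp1) and for 10.0% of all tested genes. Dnm1l averaged 104 ± 6.10 CPM in cKO TAC and 111 ± 7.94 in WT TAC, a log2 difference of -0.08 (95% interval -0.251 to 0.0859). The median of the 10 was -0.238, against 0.00438 for all genes, and it was 0.0403 under the cardiomyocyte marker scaling, where the median of all genes was 0.292.

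How many genes passed here rested on single libraries. The Mtfp1 call held in 8 of the 16 fits that each left out 1 library, with adjusted p from 0.00474 to 0.141. Replicate 3 stood apart within cKO TAC. It had the highest level of 8 of the 10 genes, a mitochondrially encoded share of 20.4% against 16.1 to 16.3% in the other 3 libraries, and a fibroblast marker sum of 3861 against 5705 to 8093 CPM. Without it, 4 of the 10 genes fell in cKO TAC against WT TAC: Mtfp1 (-0.88, edgeR adjusted p = 0.00474), Mfn1 (-0.33, 0.0405), Opa1 (-0.40, 0.0346) and Opa3 (-0.37, 0.038). The same 4 passed by DESeq2's Wald test on all libraries. Opa3 and Mtfp1 passed without WT sham replicate 1. Calls over all tested genes rose too. Lower and higher were 623 and 289 of 15444 without cKO TAC replicate 3, and 544 and 294 of 15206 by DESeq2's Wald test. Without WT sham replicate 1 they were 339 and 169 of 15454, where edgeR on all libraries gave 180 and 91 of 15206. The Mtfp1 call was lost when each of cKO TAC replicates 1, 2 and 4, WT TAC replicates 2, 3 and 4, and cKO sham replicates 1 and 4 was left out. Leaving out a cKO sham library, which is in neither group compared here, also changed the estimate of the spread and which genes were tested.

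Whether the TAC response differed between genotypes was tested as an interaction, in which the log2 TAC difference of WT was subtracted from that of cKO. The estimates were negative for all 10 genes with TMM factors, for 7 with library totals and for 2 with the cardiomyocyte marker scaling, with medians of -0.162, -0.0966 and 0.10. The median of all tested genes moved likewise, at 0.00355, 0.071 and 0.268. With TMM factors 0 passed by edgeR, by DESeq2's Wald test or by limma voom, with 0 at an unadjusted p under 0.05. Of all 15206 tested genes 0% passed by edgeR (715, or 4.70%, had an unadjusted p under 0.05, DESeq2's Wald test called 3 and limma voom 0). For Mtfp1 the interaction was -0.43 (95% interval -0.923 to 0.0535, edgeR adjusted p = 0.946). For Mfn1 it was -0.17 (interval -0.426 to 0.0892) and for Mfn2 -0.05 (interval -0.33 to 0.236). The larger number of calls in cKO than in WT was therefore not shown to be a difference between genotypes.

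Genes that act around fusion and division were followed in 5 lists. In cKO, 20 of the 41 tested genes of these lists were lower and 3 higher after TAC (edgeR adjusted p under 0.05), and in WT 6 were lower and 2 higher. Over all tested genes, 12.4% were lower and 14.2% higher in cKO, and 6.14% and 9.70% in WT. The WT count was 10 lower and 3 higher by DESeq2's Wald test and 4 lower and 2 higher by limma voom. Of all 15206 tested genes in WT, DESeq2's Wald test called 1327 lower and 1665 higher, and limma voom 924 and 1443. With each library left out in turn, 16 of the 23 list genes called in cKO passed every time and 7 did not (Slc25a46, Mtfr1l, Mul1, Fundc1, Apool, Micos13 and Mapk8ip1), while in WT 1 of 8, Rhot2, passed every time. The lists' calls changed with scaling as those of the 10 genes did: with library totals 10 were lower and 6 higher in cKO, and with the cardiomyocyte marker scaling 1 was lower and 16 were higher. The calls over all 15206 tested genes moved too. In cKO, 877 were lower and 4013 higher with library totals, and 282 lower and 8194 higher with the marker scaling.

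Of 7 genes that process or protect OPA1, 5 fell in cKO. The largest fall was that of Oma1, the stress-activated protease that cleaves OPA1, at 18.7 ± 2.43 CPM in cKO TAC and 28.0 ± 1.92 in cKO sham (log2 -0.59, SE 0.101, edgeR adjusted p = 0.000533). Parl, Spg7, Phb1 and Phb2 also fell there. The prohibitins Phb1 and Phb2 form the inner membrane scaffold on which OPA1 processing depends. Yme1l1, the other OPA1 protease, was 62.9 CPM in cKO TAC and 66.6 CPM in cKO sham (edgeR adjusted p = 0.567). In WT, Oma1 (26.3 CPM after TAC and 32.7 CPM after sham surgery, edgeR adjusted p = 0.0395) and Spg7 (log2 -0.32, edgeR adjusted p = 0.0485) fell, and they passed in 7 and 4 of the 16 fits that each left out 1 library. Without WT sham replicate 1 the Spg7 difference was -0.19, and Spg7 did not pass by limma voom. Oma1 (log2 -0.49, SE 0.101, edgeR adjusted p = 0.0253) and Parl (-0.34, edgeR adjusted p = 0.049) were also lower in cKO TAC than in WT TAC, together with Akap1 (-0.45, edgeR adjusted p = 0.0499), an anchor that holds protein kinase A at the outer membrane. These 3 calls were near the threshold: of the same 16 fits, Oma1 passed in 11 (adjusted p up to 0.0993) and Parl and Akap1 in 4 each (up to 0.182 and 0.171). They were the only calls among the 41 list genes there, where 1.18% of all tested genes were lower. DESeq2's Wald test called 8 lower, 4 of them in MICOS, and 1 higher, beside 544 lower and 294 higher of all 15206. limma voom called 3 lower, library totals 1 lower, and the cardiomyocyte marker scaling 0 lower and 1 higher. Of all 15206 tested genes, limma voom called 201 lower and 125 higher and library totals 118 and 116. The marker scaling called 45 of them lower and 460 higher.

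The MICOS complex and its partner Samm50, which form crista junctions, had the lowest list median in cKO. In cKO 7 of 8 were lower after TAC, with a list median of -0.49, and Chchd6 (9.18 CPM in cKO TAC and 9.92 CPM in cKO sham) did not pass. Immt, the core subunit mitofilin, averaged 332 ± 37.9 CPM in cKO TAC and 482 ± 36.4 in cKO sham (log2 -0.54, SE 0.0949, edgeR adjusted p = 0.000626). Chchd3, Samm50 and Apoo fell by 0.50, 0.51 and 0.50 on the log2 scale. In WT, 1 of the 8 fell, Samm50 at 206 ± 7.85 CPM after TAC and 277 ± 51.2 after sham surgery (log2 -0.43, edgeR adjusted p = 0.0171).

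Among 7 regulators of fusion, Miga2 (54.3 CPM in cKO TAC and 78.7 CPM in cKO sham, log2 -0.54, edgeR adjusted p = 0.00454) and Slc25a46 fell in cKO, and Slc25a46 fell in WT. Of 13 tested regulators of division, 5 fell in cKO (Akap1, Mtfr1, Mtfr1l, Mul1 and Fundc1) and 1, Mtfr2, was higher. Mtfr2 was barely expressed, at 1.199 ± 0.179 CPM in cKO TAC and 0.184 ± 0.107 in cKO sham, which is 17 to 23 counts against 1 to 5 counts per library. In WT, Mtfr1 fell.

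Of 6 transport genes, Rhot2, the Miro GTPase that links mitochondria to motors, was 50.8 ± 9.51 CPM in cKO TAC and 86.0 ± 8.15 in cKO sham (log2 -0.76, SE 0.121, edgeR adjusted p = 0.000278). It fell in WT too, with 69.2 ± 3.60 CPM after TAC and 100.5 ± 14.8 after sham surgery (log2 -0.54, edgeR adjusted p = 0.00614). Its paralog Rhot1 was 65.3 CPM in cKO TAC and 69.98 CPM in cKO sham (edgeR adjusted p = 0.39). Kif5b, a kinesin heavy chain, and Mapk8ip1, a scaffold of motor cargo, were higher after TAC in both genotypes, by 0.57 and 0.49 in cKO and by 0.50 and 0.48 in WT on the log2 scale. Of the 16 fits that each left out 1 library, Kif5b passed in 16 in cKO and 11 in WT, and Mapk8ip1 in 11 in cKO and 7 in WT. No gene of the 5 lists passed in cKO sham against WT sham by edgeR (DESeq2's Wald test called 1 and limma voom 0). An unadjusted p under 0.05 was reached by 12 of 41, against 15.0% of all tested genes. For the interaction the edgeR count was likewise 0 (0 by DESeq2's Wald test and 0 by limma voom). There 3 of 41 had an unadjusted p under 0.05, against 4.70% of all tested genes.

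**Figure D5:**
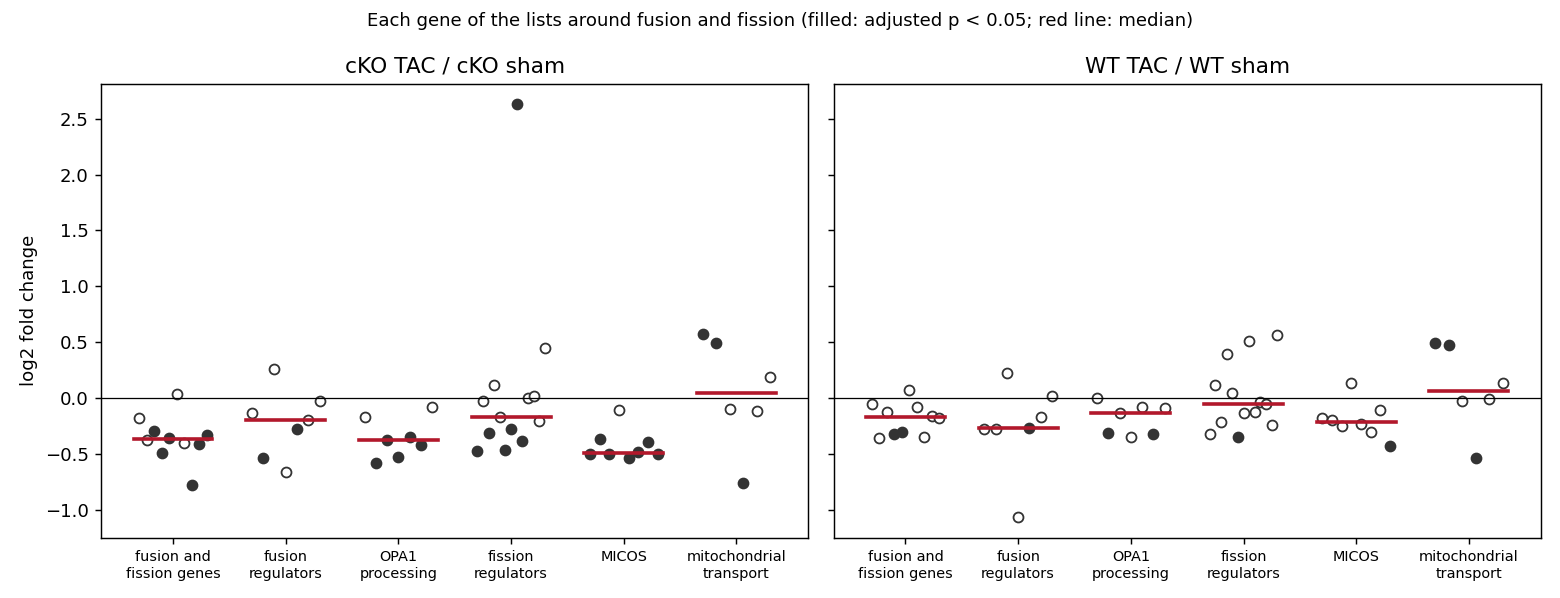
Log2 fold changes of the 10 genes and of the tested genes of 5 related lists, for TAC against sham in cKO and in WT. Filled points have an adjusted p under 0.05 and red lines mark list medians, which lie at -0.37 for the 10 genes and -0.49 for MICOS in cKO.

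The genes whose levels ran closest to Mfn1, Mtfp1 and Mff, the members with the smallest adjusted p, were sought among 10125 genes by the root mean square difference of centred log2 CPM over the 16 libraries. For Mfn1, whose own log2 SD over the libraries was 0.259, they were Isca1 (0.0518), Oxa1l (0.0556) and Acad8 (0.0623). Closest to Mtfp1 (SD 0.466) were Cox6a2 (0.0979), Atp5g3 (0.104) and Coq10a (0.106). Mff varied less (SD 0.131), and Ybx1 (0.0566), Ppp5c (0.057) and Mtch2 (0.0572) ran closest to it. The 16 libraries share group differences and cell makeup, so these distances describe the pattern over libraries only.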

How the data were processed

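RNA of 16 left ventricle samples was sequenced as paired-end libraries, 4 per group, per the labels. The authors deposited raw counts per Ensembl gene ID, with no normalization. The tools listed by the submitters' processing notes, with no roles given here, are featureCounts 2.0.6, HISAT2 2.0.5, fastp 0.22.0, SAMtools 1.21 and FastQC, and the build is GRCm39. The strand setting, the annotation release and how reads with several matches were counted are not given in the sources used here. The 10 genes and the 5 pathway lists were chosen with earlier results of these data known. Every column was used.

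Symbols were matched to 51880 of 57186 IDs, holding 99.5% of counts, through a GRCm38 annotation that also gave exon lengths. In R 4.3.3, edgeR 4.0.16 kept 15206 genes (filterByExpr), scaled libraries by TMM and fitted 1 robust quasi-likelihood model with a mean per group, leaving 12 residual degrees of freedom. P-values were adjusted by Benjamini-Hochberg over all tested genes within each of 5 comparisons, with a threshold of 0.05. Standard errors come from the F statistic. The biological coefficient of variation was 16.5%, and the script was tested on simulated data. Alternatives used DESeq2 1.42.0, limma 3.58.1 (voom), other scalings and filters, a fibroblast covariate and left-out libraries. Marker sums were compared by two-sided exact permutation tests. All 10 genes were named in each comparison. From each list, up to 4 passing genes with the smallest adjusted p carry values; further named list genes were chosen after their values were seen. The labels do not say what a replicate number marks, so the main fit did not pair libraries by it.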

Additional observations from a re-analysis of the deposited data

Results flagged for a closer look

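Each of the 10 genes was checked in each of the 4 groups for a library far from the other 3, 40 checks in all, of which chance gives about 1 in 20. Both libraries found are WT sham replicate 1. Fis1 was at 123 CPM there, against 69.9 to 74.2 CPM in the other WT sham libraries, so the gap to the nearest was 0.919 of the group's range. Mief2 was at 60.0 CPM, against 38.9 to 41.9 CPM, with a gap of 0.857 of the range. The same library had the highest Mtfp1 (206 CPM), Mfn1 (402 CPM), Mfn2 (1016 CPM), Opa3 (109 CPM) and Mief1 (25.6 CPM) of its group. It also had the lowest Opa1 (140.2 CPM) and Dnm1l (101.7 CPM) of its group. Its summed level of 5 erythrocyte markers was 1247 CPM, against 325 to 532.9 CPM in the other WT sham libraries. Its 4 atrial transcripts summed to 5.73 CPM, against 130.5 to 2388 CPM in the other 3, and its mitochondrially encoded share of 22.5% lay between theirs. The part of these values in the levels of the 2 genes was not tested.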

How the results depend on the processing

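The count of genes that passed in cKO TAC against cKO sham, 6 of 10, kept within 1.5 times of that value under 2 further size-factor and test methods and all filters tried. The exceptions were 2 with library totals, 3 with the cardiomyocyte marker scaling (chosen after seeing the data) and 0 with the fibroblast covariate. Under the marker scaling 1 was lower and 2 were higher, where 282 of all 15206 tested genes were lower and 8194 higher. With library totals 877 of all 15206 were lower and 4013 higher, and with the covariate 0 passed. In WT TAC against WT sham, 2 became 1 with no filter and without the 2 most atrial WT libraries, and 0 with library totals, the marker scaling or the covariate. Over all genes, 788 were lower and 1335 higher of 32327 with no filter, and 835 and 1306 of 15349 without the atrial libraries. Of 15206 genes, library totals gave 432 lower and 2170 higher, the marker scaling 222 and 1996, and the covariate 0. In cKO TAC against WT TAC, 1 became 0 with no filter, only the groups compared, the replicate block, without the atrial libraries or with the covariate, and 4 by DESeq2's Wald test. Calls over all 15206 tested genes rose by DESeq2's Wald test as well, from 180 lower and 91 higher to 544 lower and 294 higher. The causes were not tested. Leaving out 1 library gave 6 to 8 genes in cKO TAC against cKO sham, 0 to 2 in WT TAC against WT sham, 0 to 4 in cKO TAC against WT TAC, and 0 to 0 in cKO sham against WT sham and in the interaction.

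Same-numbered libraries correlated between -0.16 and 0.229 over 24 pairs, 4 of them over 0.1, and 5 of 16 libraries correlated best with their own number. With the replicate block, 7, 2, 0 and 0 genes passed in the 2 TAC comparisons, the sham comparison and cKO TAC against WT TAC, and 0 in the interaction. Of all 15206 tested genes in that fit, 1885 were lower and 2101 higher with TAC in cKO, and 913 and 1423 in WT. In the sham comparison 103 were lower and 132 higher, in cKO TAC against WT TAC 205 and 97, and in the interaction 0.

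The fibroblast covariate turned called signs in cKO TAC against cKO sham, with log2 values of 0.0159 for Mfn1, 0.0491 for Mfn2, 0.000514 for Opa1, 0.218 for Opa3, 0.434 for Mtfp1, 0.0862 for Miga2, 2.57e-05 for Immt, 0.163 for Samm50, 0.163 for Apoo, 0.0647 for Rhot2, -0.123 for Kif5b, -0.239 for Mapk8ip1, 0.0275 for Parl, 0.167 for Spg7 and 0.28 for Phb1. In WT TAC against WT sham it gave 0.0597 for Mfn1, 0.087 for Samm50, 0.0979 for Rhot2, -0.0215 for Kif5b, -0.0836 for Mapk8ip1, 0.109 for Oma1 and 0.132 for Spg7. The covariate itself differs between TAC and sham. The marker scaling gave, in cKO, 0.109 for Mfn2, 0.0548 for Opa1, 0.133 for Opa3, 0.30 for Dnm1l, 0.185 for Mff, 0.00164 for Mtfr1, 0.20 for Mtfr1l, 0.205 for Slc25a46, 0.094 for Parl and 0.0457 for Spg7, beside an all-gene median of 0.478. Values that passed under neither setting changed sign in 61 instances, 15 of them with 1 library left out. Depth did not limit the counting of the 10 genes, but 4 libraries per group limit the precision, and the exact tests cannot go below 0.0286.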
